A study of Mus musculus with 9 samples.

Results

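The genes described here are 9 mouse genes that sense foreign nucleic acids or turn the interferon signal into transcription. The sensors were Ddx58 (RIG-I, also written Rigi), Ifih1 (MDA5), Dhx58 (LGP2) and Tlr3, and the transcription factors were Irf1, Irf3, Irf7, Irf9 and Stat2. They were chosen by gene symbol, with earlier results of these data known. Every array feature annotated with 1 of these symbols was taken, on both array platforms. This gave 9 of the 16504 named genes on the platform used for 6 arrays, with 1 feature each. On the platform used for the other 3 arrays it gave 9 of 19087 named genes and 18 features, 1 to 3 per gene.

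The RNA came from Neuro2A cells, a mouse neuroblastoma line, and was measured on two-colour Agilent arrays to ask which genes are regulated by CCAT, the C-terminal fragment of the calcium channel CaV1.2. FL cells received the last 503 amino acids of the channel and DTA cells the last 280. The labels call the shorter form both DTS and DTA and describe it as lacking the activation domain, although they add that it still activates transcription at a lower level. Both coding sequences were carried by the plasmid PA1 and delivered with a lipid reagent, and GFP-positive cells were sorted after 24 hours. FL was set against sorted untransfected cells on 3 arrays, DTA against sorted untransfected cells on 3 arrays, and FL against sorted cells that received empty PA1 on 3 arrays of the other platform. The untransfected control therefore lacked the plasmid, the lipid reagent and GFP, while the empty vector control had received plasmid and reagent too. Comparisons with untransfected cells share that control. All samples were bulk RNA of sorted cells of 1 line, in which fewer cells of a type and less RNA per cell cannot be told apart.

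All values below are log2 ratios between the channels of an array, not levels, so no gene's level can be set against another's. Positive ratios are read as more RNA in the CCAT channel. That order is likely and is not stated in the sources used here. Its basis is the statement in the design text that PA1 alone raised some genes, and Gjb5, a connexin gene that the study's publication gives as raised by CCAT. Gjb5 had 3.28, 3.74 and 2.52 on the FL arrays against untransfected cells and 3.87, 3.94 and 3.72 on those against empty vector. If the order is the reverse, all directions below turn together. By the label fields CCAT RNA carried Cy3 on every array, so a dye effect of a single gene was not separated from its ratio. For replicate 1 of FL against empty vector, the treatment text of the control names the green channel while its label field says Cy5, and the label field was followed.

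RIG-I and MDA5 are cytosolic helicases that bind viral or otherwise unusual double-stranded RNA and signal through the mitochondrial adaptor MAVS, while LGP2 binds RNA without signalling itself and tunes both. TLR3 detects double-stranded RNA in endosomes and signals through TRIF (gene Ticam1). Both routes activate IRF3 and IRF7, which switch on interferon genes. Secreted type I interferon acts on its receptor and activates STAT2, which works with IRF9 in the complex ISGF3. This complex binds the interferon-stimulated response element (ISRE) in the promoters of interferon-stimulated genes, and RIG-I, MDA5, LGP2, IRF7, IRF9 and STAT2 are themselves encoded by such genes. IRF1 is induced by interferon gamma through the GAS element. IRF3, by contrast, is known as a factor made at a steady level and activated by phosphorylation.

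Promoter sequences are shown to display where the letters of these elements lie in some of the genes; whether they bear on the ratios was not tested. RefSeq promoter windows of assembly GRCm38.p6, 250 bases before to 50 after the annotated start, were at hand for 8 of the 9 genes. Dhx58 was not among them. The 8 genes had 10 windows together. The ISRE letters GAAANNGAAA, on either strand, were found in the windows of Ddx58, Ifih1 and Stat2, which is 37.5% of 8 genes, against 3.99% of 27025 genes with a window and 75% of 16 interferon-induced effector genes. The GAS letters TTCNNNGAA were found in 1 gene, Irf1 (12.5%), against 9.55% of all genes and 18.8% of the 16 effector genes. Another window of Irf1 had no match. No match to either was found in the windows of Tlr3, Irf3, Irf7 and Irf9. Each line gives 30 bases in the gene's own orientation, 5′ to 3′, with the matching letters in capitals (a match on the other strand is read as its reverse complement).
Ddx58, chr4:40239804-40239833, minus strand, match at bases 3 to 12 after the start: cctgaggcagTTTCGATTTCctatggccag
Ifih1, chr2:62646206-62646235, minus strand, match at bases 33 to 42 after the start: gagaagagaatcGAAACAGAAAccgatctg
Stat2, chr10:128270266-128270295, plus strand, match at bases -222 to -213: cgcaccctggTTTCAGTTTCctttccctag
Irf1, chr11:53769914-53769943, plus strand, GAS letters at bases -90 to -82: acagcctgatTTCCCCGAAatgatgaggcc
The Stat2 match lay near the far end of the 250 bases before that gene's start, chr10:128270248-128270497.
Stat2 upstream: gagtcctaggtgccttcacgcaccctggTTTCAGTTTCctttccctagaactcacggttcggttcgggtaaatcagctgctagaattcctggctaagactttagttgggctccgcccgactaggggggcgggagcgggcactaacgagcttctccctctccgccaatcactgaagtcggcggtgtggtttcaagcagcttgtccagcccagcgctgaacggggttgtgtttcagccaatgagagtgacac
Binding to these letters was not measured.

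Across named genes, Pearson's r between arrays of a group was 0.840 to 0.899 (FL against untransfected cells), 0.918 to 0.949 (DTA) and 0.814 to 0.825 (FL against empty vector). For DTA replicate 3 the treatment text names full-length CCAT, whereas the title and source give the truncated form. Its r was 0.918 to 0.949 with DTA arrays, against 0.728 to 0.789 with FL arrays, and it was used as DTA. The labels do not say whether replicates came from separate cultures, so p-values rest only on differences among arrays, possibly technical ones. With 3 arrays per group, precision is limited throughout. Presence of a cell type could not be checked from ratios. Of 9 immune cell markers measured, 0 were higher and 6 lower with FL than in untransfected cells (limma, and the same counts at an unadjusted p), with a median of -0.14, and with DTA 2 were higher and 5 lower. Against empty vector 0 were higher and 5 lower. Fibroblast markers gave 2 higher and 4 lower of 8 with FL, 2 and 2 with DTA, and 0 and 3 against empty vector. Glial markers gave 1 and 2 of 7, 0 and 2, and 0 and 3 (at an unadjusted p under 0.05, 0 higher with DTA and 2 higher against empty vector), and neuroblast and neuronal markers 3 and 6 of 10, 3 and 5, and 3 and 5. Over all genes, 34.7% were higher and 35.1% lower with FL, 35.7% and 36.1% with DTA, and 30.6% and 32.8% against empty vector. The part of other cells in the results was not tested.

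With full-length CCAT, both signalling RNA helicases, the interferon-responsive factors Irf7, Irf9 and Stat2 and, more weakly, Irf1 were higher than in untransfected cells, while Irf3 and Tlr3 were lower and Dhx58 did not pass the test. In all, 6 of the 9 genes rose and 2 fell (limma, Benjamini-Hochberg adjusted p under 0.05). That threshold called 69.8% of all genes on this platform, so the count alone says little. Called and at least 2-fold higher in mean ratio were 5 of the 9, against 1.19% of all genes (1.62% in either direction). The 9 genes were chosen with earlier results known, so this contrast describes them and is no test. The 95% intervals of Ddx58 (0.99 to 2.93) and Ifih1 (0.74 to 1.79) reached below 1, the log2 of 2-fold. Those of Irf7, Irf9 and Stat2 lay above it. Under treat, which asks for more than 1.5-fold, Ddx58 and Ifih1 were not called (adjusted p = 0.178 and 0.229), while Irf7, Irf9 and Stat2 were. The median of the 9 genes was 1.27 and that of all genes -0.0019.

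Among the helicases, Ddx58 had 1.24, 1.50 and 3.14 on the FL arrays. All 3 were high, but replicate 3 stood well above the others. The mean was 1.96 (SD 1.03, n = 3), 3.89-fold higher, with a limma adjusted p of 0.00534, and without replicate 3 it was 1.37. Ifih1 had 0.73, 1.12 and 1.94, with replicate 3 again the highest. Its mean of 1.27 (SD 0.62) was a 2.40-fold rise (adjusted p = 0.00254), and without replicate 3 it was 0.93. The spread of Ddx58 over these arrays, 1.91 from lowest to highest, was exceeded by that of only 14 of 16504 genes, and the spread of Ifih1, 1.21, by 110. FL replicate 3 was the highest of the 3 arrays for 5 of the 9 genes, against 6238 of all 16504 genes and 79 of the 189 genes whose range was at least 1.

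Dhx58, the third helicase, had 0.092, -0.014 and 0.14, which is close to 0 on every array. Its mean of 0.072 (SD 0.077) did not pass (adjusted p = 0.0932), although without FL replicate 2 it was 0.11 and passed (adjusted p = 0.0171). On this platform Dhx58 was measured only by a feature annotated to a cDNA clone, not to the RefSeq mRNA. Tlr3, the endosomal sensor, had -0.55, -0.33 and 0.0017, so the arrays reached from clearly lower to no difference. Its mean of -0.29 (SD 0.28) passed narrowly (adjusted p = 0.0397). The call was lost with FL fitted alone (adjusted p = 0.105), without FL replicate 1 (-0.16, adjusted p = 0.159), without FL replicate 2 (adjusted p = 0.132) and without any 1 DTA array (adjusted p from 0.0610 to 0.0674), and the mean was -0.44 without FL replicate 3.

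Of the factors that sensors activate, Irf7, the amplifier of interferon production, and Irf3 moved in opposite directions. Irf7 had 1.54, 2.12 and 2.10, a mean of 1.92 (SD 0.33, n = 3) and a 3.79-fold rise (adjusted p = 5.17e-05). Irf3 had -0.69, -0.85 and -0.95, all clearly below 0. Its mean of -0.83 (SD 0.13) was a 1.78-fold fall (adjusted p = 4.00e-05), and it ranked 152 from the lowest of 16504 genes by mean ratio.

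Stat2 and Irf9, which work together in ISGF3, rose by nearly the same amount. Stat2 had 1.85, 1.85 and 1.81, among the narrowest ranges of all genes: 15397 of 16504 had a wider one. It rose 3.57-fold (mean 1.84, SD 0.020, adjusted p = 1.51e-06). Irf9, the DNA-binding subunit, had 1.91, 2.08 and 1.41, with replicate 3 the lowest, and rose 3.48-fold (mean 1.80, SD 0.35, adjusted p = 7.63e-05). Irf1, which activates many of the same genes, had 0.58, 0.54 and 0.59, a small but tight rise of 1.49-fold (mean 0.57, SD 0.025, adjusted p = 1.68e-05). By mean ratio Ddx58, Irf7, Stat2 and Irf9 ranked 23, 26, 29 and 31 from the highest among 16504 genes, and Ifih1 ranked 93.

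**Figure D1:**
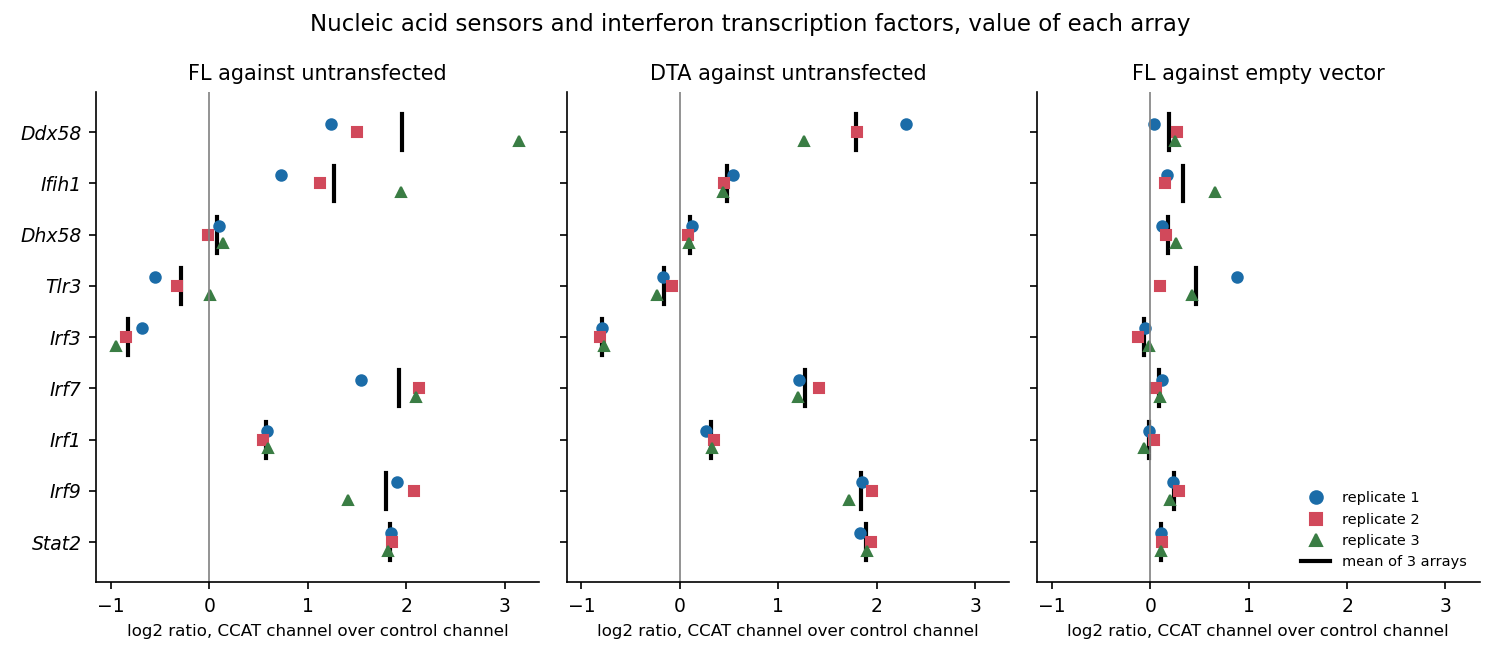
Log2 ratio of each of the 9 genes (rows) on each array, one panel per comparison; symbols mark replicates and the black bar the mean of 3 arrays. Against untransfected cells, Irf9 and Stat2 lie between 1.41 and 2.08 with either construct and Irf3 between -0.95 and -0.69, whereas Ddx58 spreads from 1.24 to 3.14 with FL; against empty vector the means lie between -0.063 and 0.47.

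The truncated construct was also followed by higher ratios of the interferon-responsive factors and of Ddx58 than in untransfected cells. Of the 9 genes, 6 rose and 1 fell, where the limma test called 71.8% of all genes. Called and at least 2-fold higher in mean ratio were 4, Ddx58, Irf7, Irf9 and Stat2, against 1.81% of all genes (2.33% in either direction). Again this describes genes chosen with earlier results known. The 95% intervals of Ddx58 (0.82 to 2.75) and Irf7 (0.98 to 1.57) reached below 1, and those of Irf9 and Stat2 lay above it. Under treat at 1.5-fold Ddx58 was not called (adjusted p = 0.208), while Irf7, Irf9 and Stat2 were. The median of the 9 genes was 0.48, and that of all genes was -0.0061.

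Ddx58 had 2.29, 1.80 and 1.26 on the DTA arrays, a mean of 1.79 (SD 0.52, n = 3) and a 3.45-fold rise (adjusted p = 0.00749). Ifih1 had 0.54, 0.45 and 0.44, all higher and close together. Its mean of 0.48 (SD 0.056) did not pass (adjusted p = 0.0864) in the joint fit, which also takes in the FL arrays with their SD of 0.62. With DTA fitted alone it passed (adjusted p = 6.79e-04), as it did without FL replicate 3 (0.00393) and without FL replicate 1 (0.0434). Dhx58 had 0.12, 0.082 and 0.094, a 1.07-fold rise (mean 0.10, SD 0.021, adjusted p = 0.0328) that was not called without any 1 of the 3 DTA arrays (adjusted p from 0.0872 to 0.132). Tlr3 had -0.17, -0.075 and -0.23, a mean of -0.16 that did not pass (SD 0.079, adjusted p = 0.199), though it did with DTA fitted alone (adjusted p = 0.0229) and without FL replicate 3 (0.0461).

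Irf7 had 1.21, 1.41 and 1.20 with DTA and rose 2.42-fold (mean 1.27, SD 0.12, adjusted p = 2.13e-04). Irf3 had -0.79, -0.81 and -0.77, 3 almost equal values, and fell 1.73-fold (mean -0.79, SD 0.017, adjusted p = 3.88e-05). Irf9 had 1.85, 1.95 and 1.72 and rose 3.57-fold (mean 1.84, SD 0.12, adjusted p = 5.98e-05). Stat2 had 1.83, 1.94 and 1.91 and rose 3.71-fold (mean 1.89, SD 0.056, adjusted p = 1.40e-06). Irf1 had 0.27, 0.35 and 0.33, a rise of 1.24-fold (mean 0.32, SD 0.045, adjusted p = 9.84e-05). As with FL, every array put Stat2 and Irf9 above 1.7 except FL replicate 3 for Irf9, and every array put Irf3 below 0.

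FL and DTA were compared directly within the shared fit. The constructs differ by the segment that only FL carries, but how much of each construct the cells made was not measured. A difference therefore cannot be assigned to that segment. Irf7 and Irf1 were higher with FL than with DTA, and the other 7 genes did not pass. These 2 of 9 stand beside 34.2% of all genes called in either direction. At an unadjusted p under 0.05 the counts were 3 higher and 0 lower. The median difference was -0.028 over the 9 genes and 0.0026 over all genes.

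Irf1 lay between 0.54 and 0.59 with FL and between 0.27 and 0.35 with DTA, with no overlap. The difference was 0.26 (95% interval 0.17 to 0.34, adjusted p = 0.00386), a 1.19-fold higher ratio, and it was called without each array in turn. Irf7 lay between 1.54 and 2.12 with FL and between 1.20 and 1.41 with DTA. Its difference of 0.65 (95% interval 0.23 to 1.07), or 1.57-fold, passed (adjusted p = 0.0325), but without FL replicate 2 or 3 or any 1 DTA array the adjusted p was 0.0630 to 0.0998. Ifih1 also did not overlap, with 0.73 to 1.94 for FL and 0.44 to 0.54 for DTA. Its difference of 0.79 (95% interval 0.049 to 1.53) had an adjusted p of 0.0945, and it passed without FL replicate 1 (1.05, adjusted p = 0.0345) and without FL replicate 3 (0.45, adjusted p = 0.0483). The arrays of FL and DTA did not overlap for 50% of all genes, so 3 of 9 is not more than usual here.

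For Stat2, Irf9, Irf3 and Dhx58 the differences between FL and DTA were small and their intervals included 0. Stat2 differed by -0.054 (95% interval -0.15 to 0.038) and Irf3 by -0.038 (-0.21 to 0.13). Irf9 differed by -0.040 with a wider interval of -0.48 to 0.40, and Dhx58 by -0.028 (-0.14 to 0.085). These intervals exclude a 2-fold difference for each of the 4 genes, which does not show that the constructs act alike. Under quantile normalization the Stat2 difference turned to 0.18 (adjusted p = 0.0179). Ddx58 was too variable to compare: its difference of 0.17 had an interval from -1.19 to 1.54 and became -0.42 without FL replicate 3. Tlr3 differed by -0.14 (-0.48 to 0.21).

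**Figure D2:**
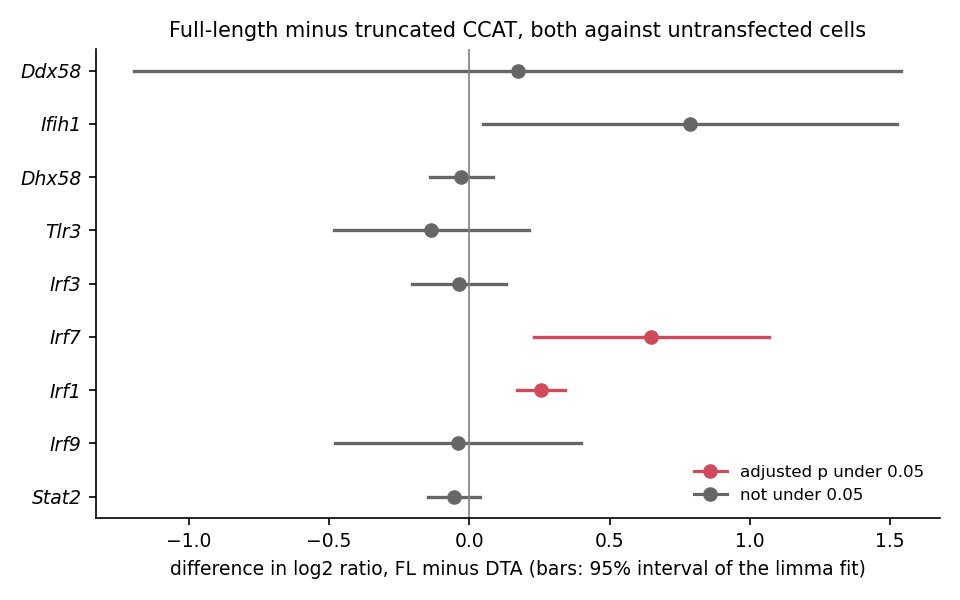
Difference in log2 ratio between FL and DTA (horizontal axis) for each of the 9 genes, with the 95% interval of the limma fit as bars and genes with an adjusted p under 0.05 in red. Irf7 at 0.65 and Irf1 at 0.26 are the called genes; Stat2, Irf3 and Dhx58 have narrow intervals around 0, while that of Ddx58 runs from -1.19 to 1.54.

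With empty PA1 as the control, the ratios of these genes for full-length CCAT were mostly close to 0. Of the 9, 0 were 2-fold changed in mean ratio, where 0.262% of all genes were called at that size. In limma 4 rose, Irf9, Dhx58, Stat2 and Irf7, by 0.25 or less, and 0 fell, where 63.4% of all genes were called. At an unadjusted p under 0.05 these counts were 5 and 0. The median of the 9 genes was 0.18, and that of all genes was -0.0048. The comparison is on another platform with other features, so its ratios were not tested against those relative to untransfected cells.

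Stat2, with a single feature, had 0.11, 0.12 and 0.11 on these arrays, a 1.08-fold rise (mean 0.11, SD 0.010, adjusted p = 0.00703). Irf7, also with 1 feature, had 0.12, 0.055 and 0.10 and rose 1.07-fold (mean 0.093, SD 0.034, adjusted p = 0.0254), but it was not called without any 1 array (adjusted p from 0.0519 to 0.0989). Stat2 was not called without replicate 2 (adjusted p = 0.0511). The 2 features of Irf9 lay close to each other, at 0.19, 0.24 and 0.17 and at 0.28, 0.35 and 0.24, and averaged a 1.19-fold rise (mean 0.25, SD 0.046, adjusted p = 0.00437).

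The features of the other genes often did not move together. For Irf1 the feature annotated to a cDNA clone had -0.39, -0.24 and -0.42, whereas the RefSeq features had 0.15, 0.19 and 0.16 and 0.21, 0.18 and 0.078. Their mean of -0.0098 (adjusted p = 0.770) thus joins opposite signs, and the RefSeq features alone gave 0.16 (adjusted p = 0.00616, a choice made after the values were seen). For Irf3 the order was the opposite: the RefSeq feature had -0.27, -0.23 and -0.18 (mean -0.23, adjusted p = 0.00591 as a single feature) and the clone feature 0.18, -0.024 and 0.16 (mean 0.10, adjusted p = 0.167). Irf3 as a gene had a mean of -0.063 and did not pass (adjusted p = 0.140).

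Tlr3 had the widest disagreement, between features that carry the same RefSeq annotation. The first had 1.90, 0.43 and 1.00, a mean of 1.11 with an SD of 0.74 (adjusted p = 0.0595 as a single feature). The second had -0.14, -0.24 and -0.14, with a mean of -0.18 (SD 0.058, adjusted p = 0.0154). The gene mean of 0.47 (SD 0.40, adjusted p = 0.0888) describes neither feature, so no direction can be given for Tlr3 against empty vector.

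Among the helicases, the RefSeq feature of Dhx58 had 0.26, 0.28 and 0.30 (mean 0.28, adjusted p = 0.00263 as a single feature) and the clone feature -0.028, 0.048 and 0.23, a gene mean of 0.18 (SD 0.076, adjusted p = 0.0200) that was not called without replicate 2 (adjusted p = 0.0786). The features of Ddx58 had 0.22, 0.56 and 0.30, then -0.37, -0.030 and 0.18, then 0.26, 0.28 and 0.26. Their mean of 0.19 (SD 0.13) did not pass (adjusted p = 0.0596), while the median over features was 0.26 (adjusted p = 0.00293). Ifih1 had 0.19, 0.016 and 1.14 on 1 feature and 0.16, 0.28 and 0.18 on the other. Its mean of 0.33 (SD 0.29, adjusted p = 0.0980) was raised by replicate 3 of the first feature, and without that replicate it was 0.16 (adjusted p = 0.0242).

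**Figure D3:**
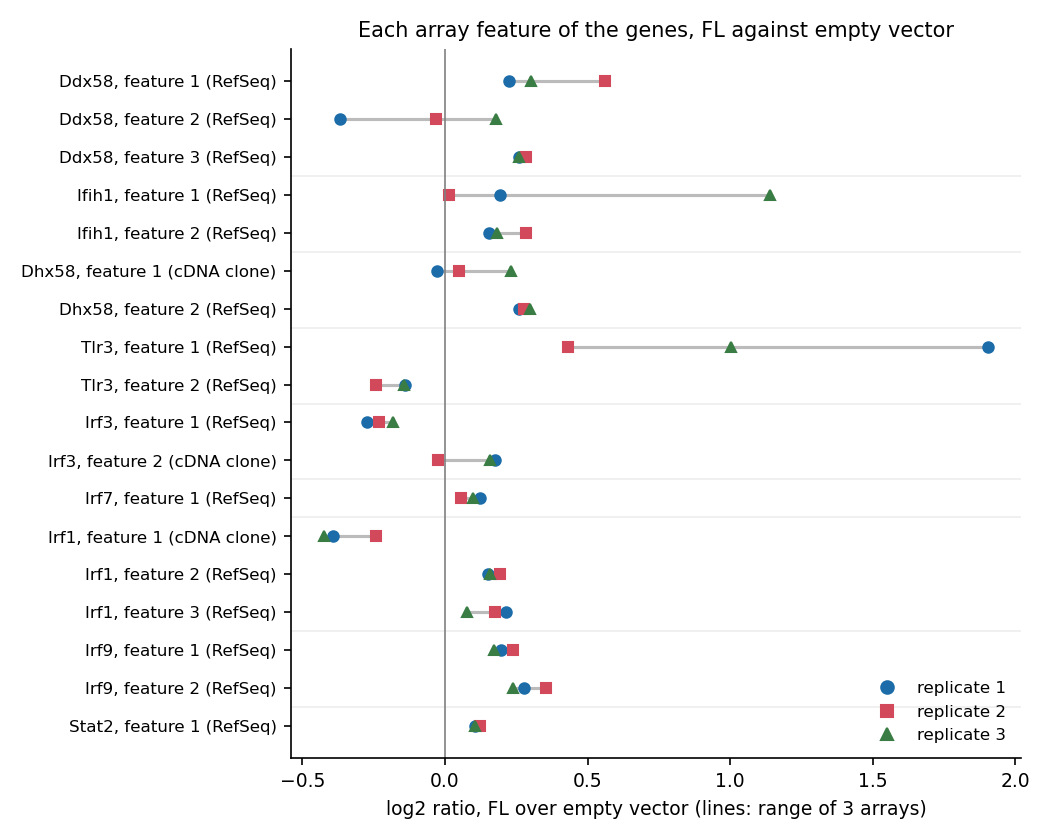
Log2 ratio of FL over empty vector for each of the 18 array features of the 9 genes (rows), with symbols for the 3 replicates and grey lines for their range; each feature is marked as annotated to a RefSeq mRNA or a cDNA clone. One Tlr3 feature runs from 0.43 to 1.90 while the other lies between -0.24 and -0.14, and the clone features of Irf1 and Irf3 lie on the other side of 0 from the RefSeq features or across it.

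The rest of the pathway was read from gene lists. Over all genes, limma called 69.8% with FL against untransfected cells, 71.8% with DTA and 63.4% with FL against empty vector. Counts of called genes in each list below therefore say little alone. Called and at least 2-fold changed in either direction were 1.62%, 2.33% and 0.262% of all genes. Among 12 measured adaptors and kinases that link sensors to the IRFs, 6 rose and 3 fell with FL against untransfected cells (median 0.10), 4 rose and 3 fell with DTA (0.0027), and 5 rose and 4 fell with FL against empty vector (0.024). Trim25, a ubiquitin ligase for RIG-I, rose with both, by 1.36 with FL and 1.22 with DTA (adjusted p = 7.43e-06 and 6.17e-06), and by 0.20 with FL against empty vector (adjusted p = 0.0152). The kinase Irak1 rose by 0.45 with FL and 0.51 with DTA, and Ikbkg, a subunit of the IKK complex, by 0.33 and 0.21. Ticam1, the TLR3 adaptor, fell by 0.37 with FL and 0.16 with DTA, and by 0.45 with FL against empty vector.

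Mavs, the adaptor of RIG-I and MDA5, differed more in mean between the constructs than any of the 9 genes did. It had 0.29, 0.20 and 0.16 on the FL arrays and 0.98, 1.05 and 1.04 on the DTA arrays, which do not overlap. The difference was -0.81 (limma adjusted p = 5.36e-04), and with FL against empty vector Mavs rose by 0.14 (adjusted p = 0.00778). It was measured by 1 feature on each platform.

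Among 12 other nucleic acid sensors, 4 rose and 3 fell with FL against untransfected cells (median 0.053), 4 rose and 2 fell with DTA (-0.0086), and 4 rose and 1 fell with FL against empty vector (0.21). Eif2ak2, the double-stranded RNA-activated kinase PKR, had 0.65, 0.71 and 0.89 with FL and 0.28, 0.26 and 0.20 with DTA. The difference of 0.50 passed (adjusted p = 0.00364), and with FL against empty vector Eif2ak2 rose by 0.36 (adjusted p = 0.00296). Sting1, the adaptor of cytosolic DNA sensing, fell by 0.51 with FL and 0.45 with DTA, and had -0.024 with FL against empty vector (adjusted p = 0.204). Tlr9, an endosomal DNA sensor, fell by 0.27 with FL (adjusted p = 8.08e-05), and Dhx9, an RNA helicase, rose by 0.25 (adjusted p = 1.01e-04). Zbp1, a sensor of Z-form nucleic acids that is named because it was the only 2-fold change in this list with FL, had a mean of 1.08 with FL and 0.51 with DTA; it was chosen after its values were seen.

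Few interferon genes rose. Of 9 measured ligands, 0 rose and 4 fell with FL (limma, with the same counts at an unadjusted p) and 1 rose and 5 fell with DTA, with medians of -0.070 and -0.12. Of 14 measured against empty vector, 1 rose and 7 fell (median -0.093). Over all genes 34.7% rose and 35.1% fell with FL, 35.7% and 36.1% with DTA, and 30.6% and 32.8% against empty vector. Ifnb1, interferon beta, had ratios of exactly 0 on FL replicates 1 and 2 and 0.48 on replicate 3, a mean of 0.16 that did not pass (adjusted p = 0.436). On the DTA arrays it had 0.60, 0.80 and exactly 0, a mean of 0.47 (adjusted p = 0.0479), and against empty vector -0.21, -0.16 and 0.39 (adjusted p = 0.984). Between 344 and 384 features per array of this platform had a ratio of exactly 0. Ifna9 fell in each comparison, by 0.57 with FL, 0.36 with DTA and 0.52 with FL against empty vector, and Ifng, interferon gamma, fell by 0.45, 0.46 and 0.26. Whether the features of these ligands gave signal above background was not checked.

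Of 9 receptor and JAK kinase genes, 4 rose and 1 fell with FL (median 0.088), 5 rose and 3 fell with DTA (0.19), and 3 rose and 3 fell with FL against empty vector (0.030). Ifnar1, a type I interferon receptor chain, had 0.088 with FL (adjusted p = 0.149) and rose by 0.22 with DTA (adjusted p = 0.00723), and its partner Ifnar2 rose by 0.22 with FL and 0.19 with DTA. Jak1 rose by 0.56 with FL and 0.57 with DTA, while Tyk2, the other kinase of that receptor, fell by 0.36 and 0.29. Ifngr1, a chain of the interferon gamma receptor, had 0.68, 0.64 and 0.69 with FL and 0.33, 0.41 and 0.42 with DTA. It was 0.28 higher with FL than with DTA (adjusted p = 0.00338) and rose by 0.36 with FL against empty vector.

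Among 9 other IRF and STAT genes, 4 rose and 1 fell with FL (median 0.10), 4 rose and 2 fell with DTA (0.050), and 2 rose and 1 fell with FL against empty vector (0.034), with no change of 2-fold. Irf2, which competes with IRF1 for its sites, had 0.47, 0.52 and 0.46 with FL and 0.039, 0.12 and 0.073 with DTA, a difference of 0.40 (adjusted p = 0.00113). Stat6, the factor of interleukin 4 signalling, rose by 0.28 with FL and 0.63 with DTA, with a difference of -0.35 (adjusted p = 0.00893). Stat3 rose by 0.35 and 0.56, and its difference did not pass (adjusted p = 0.0895).

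Negative regulators moved in both directions, with 8 of 19 higher and 8 lower with FL (median 0.015), 5 and 8 with DTA (-0.0090), and 10 and 7 with FL against empty vector (0.071). Between FL and DTA 0 of the 19 were called, where 34.2% of all genes were. At an unadjusted p under 0.05 the counts of this list were 3 higher and 0 lower. Usp18, which removes ISG15 and blocks the interferon receptor, had 1.68, 2.25 and 3.32 with FL and 1.64, 1.17 and 1.02 with DTA, and -0.069, -0.0037 and 0.075 with FL against empty vector. Like Ddx58, it was highest on FL replicate 3 and lowest on FL replicate 1. Trim30a, the other 2-fold rise in this list and named after its values were seen, had 1.32 with FL and 1.20 with DTA. Socs3, a feedback inhibitor of cytokine receptors, fell by 0.42 with FL and 0.49 with DTA.

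Interferon-induced effectors, many of them textbook targets of ISGF3, rose in 16 of 18 with FL and 14 of 18 with DTA, and 1 fell in each. Over all genes 34.7% rose and 35.1% fell with FL, and 35.7% and 36.1% with DTA. At least 2-fold higher were 12 with FL and 9 with DTA, against 1.19% and 1.81% of all genes, with medians of 1.42 and 1.08. This list too was drawn up with earlier results known, so the contrast is no test. With FL against empty vector 13 of 19 rose, 0 fell (limma, and 0 at an unadjusted p under 0.05) and 0 changed 2-fold (median 0.16). Over all genes in that comparison 30.6% rose, 32.8% fell and 0.262% changed 2-fold. The chemokine gene Cxcl10 had 5.32, 5.54 and 5.29 with FL, 5.45, 5.56 and 5.62 with DTA, and 0.21, 0.23 and 0.24 with FL against empty vector. Isg15, a ubiquitin-like modifier, had 4.19, 4.34 and 4.28 with FL and 3.71, 3.63 and 3.56 with DTA, with a difference of 0.64 (adjusted p = 0.00123), and 0.27, 0.26 and 0.26 with FL against empty vector.

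**Figure D4:**
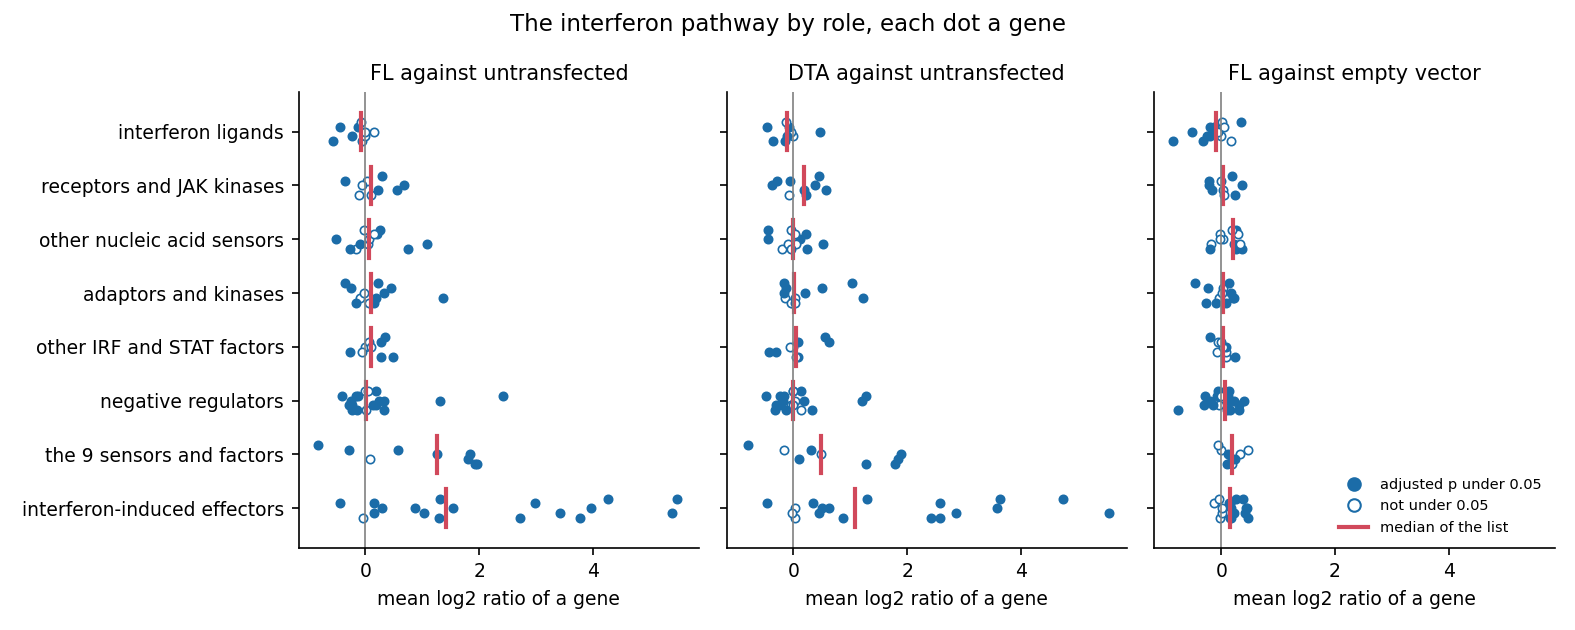
Mean log2 ratio of each gene of the pathway lists (dots, rows ordered by role), one panel per comparison; filled dots have an adjusted p under 0.05 and red bars are list medians. The 9 sensors and factors and the interferon-induced effectors have medians of 1.27 and 1.42 with FL and 0.48 and 1.08 with DTA, while the other lists have medians near 0; against empty vector all lists lie within 1 of 0.

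For the 5 genes with a mean ratio of at least 1 in size against untransfected cells, genes with the most similar ratios were sought. Similarity was the Euclidean distance over the ratios of all 9 arrays. Of the 16328 genes on both platforms, those with symbols of clones, gene models or pseudogenes were left out of the search. The distance describes 9 ratios per gene, which share controls and constructs. Stat2 lay nearest to Hsd17b7 (distance 0.527), Irf9 (0.561) and Lss (0.660), and Irf9 nearest to Stat2 (0.561), Hsd17b7 (0.770) and Prelid2 (0.775). Irf7 lay nearest to Slc2a1 (0.580), Tpi1 (0.583) and Hmgcs1 (0.617). Ifih1 lay nearest to Aqp1 (0.585), Frzb (0.762) and Bnip3l (0.857). Ddx58 had no close neighbour among the genes searched, with Usp18 at 1.34, Lgals3bp at 1.64 and Slc2a1 at 1.66. Only for Irf9 and Stat2 was 1 of the 9 genes among the nearest 3.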

How the data were processed

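RNA of sorted Neuro2A cells was measured on 9 two-colour arrays. The authors deposited log10 ratios of the channels, and the labels name Rosetta Luminator as their software. The order of the ratio, the background correction and any dye normalization are not given in the sources used here. Ratios were converted to log2, and features named through the platform annotation were averaged per gene. The 6 arrays against untransfected cells shared 1 fit, and the 3 against empty vector had their own, with limma 3.58.1 in R 4.3.3 (lmFit, eBayes, Benjamini-Hochberg over all genes, threshold 0.05). The fit was tested on simulated data. Groups came from titles and source names.

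The genes, lists and tests were chosen with earlier results of these data known. Besides the 9 genes, up to 4 genes per list with the smallest p for FL against untransfected cells were named, plus Mavs, Eif2ak2, Ifnb1, Ifnar1, Ifnar2, Gjb5 and nearest neighbours. Array ranges, the promoter letters and the setting with RefSeq features only were chosen after seeing the data. Alternatives were array centring, quantile normalization, treat at 1.5-fold, robust eBayes, the median over features, single features, ratios of 0 left out, only genes with an absolute log2 ratio of 0.2 or more, the replicate number as a block, separate fits per group and leaving out each array. On each array, the value shared by the most features beyond those close to it was sought, with ratios near 0 left out. No feature of the 9 genes lay on that value. Other shared values, including ratios of 0, were not examined in this way. Same-numbered FL and DTA arrays deviated from their group means with correlations of -0.043, 0.091 and -0.0025, so the numbers were not taken as pairs. Figures were drawn with matplotlib 3.10.9.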

Additional observations from a re-analysis of the deposited data

Results flagged for a closer look

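Irf1 and Irf7 are listed because their ratios against untransfected cells differed between FL and DTA by a test of the difference itself. This was so for 34.2% of all genes, and it does not single them out. For Irf1 the difference was 0.26 on the log2 scale (limma adjusted p = 0.00386). For Irf7 it was 0.65 (adjusted p = 0.0325), but the call was lost when any of 5 of the 6 arrays was left out. In both genes the FL and DTA arrays did not overlap, as in 50% of all genes. The difference in construct level between the cells was not measured, and a cause was not tested. Groups of 3 arrays were too small for a search for single outlying arrays.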

How the results depend on the processing

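Counted over the 9 genes and their alternatives, 131 of 143 values for FL and 131 of 143 for DTA against untransfected cells kept their direction and side of the threshold and 0 reversed. The numbers were 116 of 134 for FL minus DTA (9 reversed) and 82 of 104 for FL against empty vector (5 reversed). The filter removed Dhx58 from the 6 arrays, and Irf1, Irf3, Irf7 and Stat2 from the other 3, so these have no value under it. With treat, which asks for more than 1.5-fold, 492, 734, 30 and 2 of all genes were called in FL, DTA, FL minus DTA and FL against empty vector, and 4, 3, 0 and 0 of the 9, of which 3 were 2-fold with FL; this setting asks for a larger change by construction. Against empty vector, single features gave 20530 calls and 9 of the 9 genes with a called feature, the filter on barely varying genes left 7629 calls, and the RefSeq features called 6 of the 9. Leaving out 1 array, FL minus DTA called 3415 to 5836 genes, 1 to 3 of the 9, and 0 to 1 of them at 2-fold, and FL against empty vector called 8400 to 9788 genes and 1 to 4 of the 9. FL minus DTA reversed under quantile normalization for Irf3 (0.084), Irf9 (0.23) and Stat2 (0.18), without FL replicate 2 for Dhx58 (0.015), without FL replicate 3 for Ddx58 (-0.42), Irf3 (0.021) and Irf9 (0.16), without DTA replicate 2 for Irf9 (0.015) and without DTA replicate 3 for Ddx58 (-0.088). Its ranges over left-out arrays were -0.42 to 0.54 for Ddx58, -0.061 to 0.015 for Dhx58, -0.11 to 0.021 for Irf3 and -0.18 to 0.16 for Irf9. Against empty vector Irf1 reversed with the median over features (0.13), single features (0.17), RefSeq features (0.16) and without replicate 3 (0.016, in a range of -0.036 to 0.016 over left-out arrays), and Tlr3 with single features (-0.18). With the replicate block, FL minus DTA called 4016 genes in place of 5646 and 2 of the 9, and the Tlr3 call with FL was lost (adjusted p = 0.0573); it changed no other call of the 9 genes. The cause of these changes was not tested except where the setting itself gives it. Signal over background was not used here, so a weak feature cannot be told from a strong one.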
